A study of Mus musculus with 8 samples.

Results

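The genes described here are 10 components of apoptotic cell uptake, chosen by name from the 48795 gene identifiers in each table: the TAM receptors *Mertk*, *Axl* and *Tyro3*, the bridging ligands *Gas6* and *Pros1*, the integrin subunits *Itgav* and *Itgb5*, and the engulfment genes *Megf10*, *Gulp1* and *Elmo1*. They were measured by polyA RNA sequencing in peritoneal macrophages (pMacs), the resident macrophages washed out of the peritoneal cavity and, by the study's account, purified. Its methods name selection on F4/80 beads for other assays and do not mention it for sequencing. The study asked how the lipid-presenting molecule CD1d alters macrophage function, and its sequencing arm compared 4 C57BL/6 WT mice with 4 CD1d-KO mice, 1 library per mouse, with no stimulation named in the labels. Libraries carry replicate numbers 1, 2, 3 and 5 in both genotypes, and a WT and a CD1d-KO mouse with the same number are called a pair.

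Several features limit the groups as a model. The deletion is present in the whole animal, so the KO mice also lack CD1d-restricted NKT cells. The study names littermates as the controls of the sequenced mice. Its methods list more than 1 CD1d-deficient line, and the line used for sequencing is not given in the sources used here. Adult mice of both sexes were used in the study, matched for age and sex, and the age and sex of each sequenced mouse are not given in the labels. In bulk RNA, fewer cells of a type and less RNA per cell cannot be told apart.

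Dying cells expose phosphatidylserine on their surface. GAS6 and protein S, the product of *Pros1*, bind that lipid and bridge it to the receptor tyrosine kinases TYRO3, AXL and MERTK, which drive engulfment and restrain inflammatory signalling. The integrin αvβ5, made from *Itgav* and *Itgb5*, takes hold of the same targets through other bridging proteins such as MFG-E8. MEGF10 is an engulfment receptor best known in astrocytes, GULP1 is an adaptor for receptors of that kind, and ELMO1 works with DOCK proteins to activate RAC1 and close the phagocytic cup. Resident tissue macrophages, peritoneal ones included, clear dying cells without provoking inflammation.

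The annotation of the mouse build GRCm38 placed 3 of the 10 genes on chromosome 2: *Mertk* at chr2:128698956-128802894, *Tyro3* at chr2:119797733-119818104 and *Itgav* at chr2:83724397-83806916, all on the plus strand. *Axl* lies at chr7:25757273-25788705 and *Gas6* at chr8:13465374-13494490, both on the minus strand. On the plus strand are *Pros1* at chr16:62854307-62929346, *Itgb5* at chr16:33829665-33949338, *Gulp1* at chr1:44551511-44796838 and *Elmo1* at chr13:20090596-20608353. None of these 9 genes is on chromosome 3, where the targeted gene *Cd1d1* lies.

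The promoters of the TAM receptors and of their ligands are shown because these 5 genes ranged from the highest to the lowest detected levels of the group. Each window runs from 250 bases before to 50 bases after a gene start in RefSeq (build GRCm38.p6) and is written 5′ to 3′ on the gene's strand. Capitals mark the GC box GGGCGG, the core recognised by SP1-family factors, or its reverse complement CCGCCC, and where matches overlap they form 1 run of capitals.
*Mertk* (chr2:128698665-128698964, plus strand): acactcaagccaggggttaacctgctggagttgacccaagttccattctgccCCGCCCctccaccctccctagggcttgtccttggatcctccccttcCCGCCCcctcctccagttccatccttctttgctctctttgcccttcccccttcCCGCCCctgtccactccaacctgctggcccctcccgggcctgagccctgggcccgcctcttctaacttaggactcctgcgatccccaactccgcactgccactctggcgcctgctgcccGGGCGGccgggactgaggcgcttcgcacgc
*Axl* (chr7:25788684-25788983, minus strand): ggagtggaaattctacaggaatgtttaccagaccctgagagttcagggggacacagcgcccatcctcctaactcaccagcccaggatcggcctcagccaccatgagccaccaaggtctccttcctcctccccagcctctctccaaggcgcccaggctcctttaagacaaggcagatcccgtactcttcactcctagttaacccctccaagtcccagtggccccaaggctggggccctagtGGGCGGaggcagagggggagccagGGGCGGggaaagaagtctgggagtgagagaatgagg
*Tyro3* (chr2:119799264-119799563, plus strand): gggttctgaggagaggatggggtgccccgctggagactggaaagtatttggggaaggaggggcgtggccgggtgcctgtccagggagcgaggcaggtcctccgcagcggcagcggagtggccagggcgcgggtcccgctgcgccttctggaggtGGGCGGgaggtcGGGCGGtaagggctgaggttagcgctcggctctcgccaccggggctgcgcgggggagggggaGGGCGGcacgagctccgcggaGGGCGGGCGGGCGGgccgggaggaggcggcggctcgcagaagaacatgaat
*Gas6* (chr8:13494486-13494785, minus strand): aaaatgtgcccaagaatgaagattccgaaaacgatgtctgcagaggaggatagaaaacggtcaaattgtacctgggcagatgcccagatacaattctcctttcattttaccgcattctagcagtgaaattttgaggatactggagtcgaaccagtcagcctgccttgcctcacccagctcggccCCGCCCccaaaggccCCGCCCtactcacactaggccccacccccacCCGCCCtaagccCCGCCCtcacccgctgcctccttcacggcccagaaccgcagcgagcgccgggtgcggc
*Pros1* (chr16:62854057-62854356, plus strand): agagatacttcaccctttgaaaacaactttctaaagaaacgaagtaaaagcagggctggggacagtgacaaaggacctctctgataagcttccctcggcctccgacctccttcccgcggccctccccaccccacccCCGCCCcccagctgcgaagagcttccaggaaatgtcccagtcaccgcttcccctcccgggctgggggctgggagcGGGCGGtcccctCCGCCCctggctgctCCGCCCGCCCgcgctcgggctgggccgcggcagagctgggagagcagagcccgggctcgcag

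The *Mertk* window held 4 GC boxes and the *Axl* window 2. Among the other three, *Tyro3* held 6, *Gas6* 4 and *Pros1* 5. A RefSeq window was matched for 9 of the 10 genes, with 2 windows for *Elmo1*, and 9 of these 10 windows held at least 1 GC box on either strand, against 35.7% of all 32851 promoters of the same length. CpG dinucleotides numbered 6 in the *Axl* window, 14 in *Mertk*, 17 in *Gas6*, 21 in *Pros1* and 31 in *Tyro3*, beside a median of 7 over all promoters. GAGGAA, the core bound by the macrophage factor PU.1, was found on either strand in 3 of the 10 windows, against 28.3% of all promoters. These are letter matches in short windows. The scarcely detected *Tyro3* had more GC boxes than the highly expressed *Axl*.

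The libraries held 13698864 to 19059432 expected counts, the read totals that RSEM assigns to genes, with WT at 13875116 to 19059432 and CD1d-KO at 13698864 to 18631659. The cells carried macrophage transcripts in every library, with 10102 to 14185 normalized counts of *Adgre1* (F4/80), 35180 to 43355 of *Csf1r* and 347 to 779 of *Gata6*, the transcription factor of large pMacs. The macrophage marker *Fcgr1* varied far more, at 77.9 to 2997 in WT and 349 to 3339 in CD1d-KO, with replicate 1 lowest in both genotypes. A normalized count is an expected count scaled to the average library. Transcripts of *Cd1d1* numbered 68.2, 175, 96.1 and 141 normalized counts in WT replicates 1, 2, 3 and 5, against 60.6, 1.14, 0 and 1.10 in the CD1d-KO replicates in the same order. The library labelled CD1d-KO replicate 1 thus held *Cd1d1* near the lowest WT library, against its label. In edgeR on all 8 libraries *Cd1d1* had a log2 fold change of -3.42 ± 1.04 (SE) and an adjusted p of 0.233. The targeted gene itself was therefore not called, and it was called without replicate 1. Without replicate 1 each of the 8 tested genes kept the sign of its fold change and its lack of a call. The log2 fold change moved most for *Tyro3*, from -0.47 to -0.63, and for *Gas6*, from -0.11 to -0.21. Values without replicate 1 are given below for some of the genes, not for all. Beside the macrophage lists, markers of B cells were the most abundant of the other cell types, and the marker sums of mesothelial cells stayed at or under 15.2 normalized counts, with *Krt19* at 0 throughout. Fibroblast markers summed to 4.81 to 16.5 in WT and 12.6 to 102 in CD1d-KO, the highest being replicate 1. Of 78 marker genes in 12 lists, 39 could be tested, 0 passed an adjusted p of 0.05 in edgeR and 7 had an unadjusted p under 0.05.

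Levels differed among the 10 genes far more than between genotypes. On the TPM scale, which corrects for transcript length, the median of the 8 libraries was 78.9 for *Axl*, 70.0 for *Itgav* and 65.9 for *Pros1*. *Elmo1* followed at 40.3, *Mertk* at 33.2 and *Itgb5* at 19.6 TPM, while *Gas6* reached 1.17 and *Tyro3* 0.81. These 2 lie far down the range of detected genes: 11.9% of the tested genes had a lower median TPM than *Gas6* and 7.28% a lower one than *Tyro3*, as against 88.9% for *Axl*. The order has 2 clear steps among detected genes, from *Pros1* down to *Elmo1* and from *Itgb5* down to *Gas6*, where the ranges over the 8 libraries did not overlap. All other detected neighbours overlapped in range. *Axl* exceeded *Itgav* in 6 of 8 libraries and *Gas6* exceeded *Tyro3* in 3 of 8, so the order within those pairs of neighbours was not fixed.

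**Figure D1:**
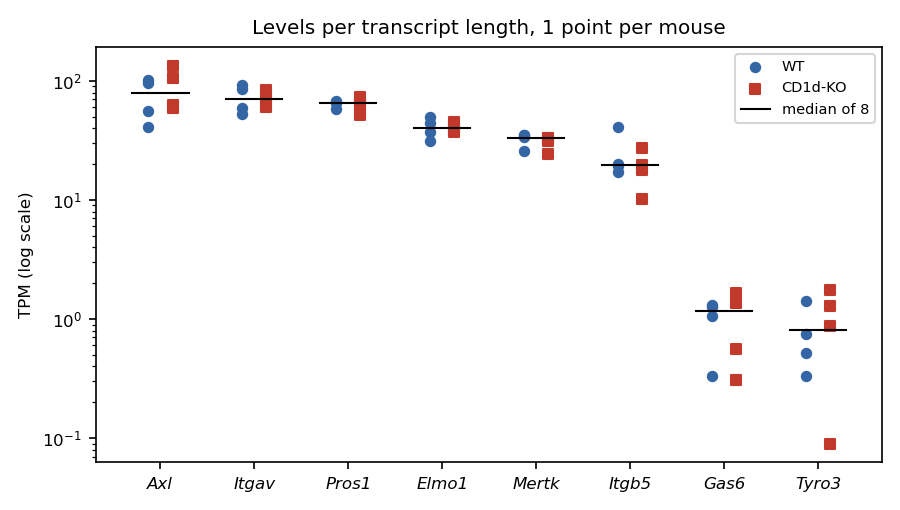
TPM of each detected gene on a log axis, 1 point per library, for WT and CD1d-KO mice. *Axl*, *Itgav* and *Pros1* have the highest medians, at 78.9, 70.0 and 65.9 TPM, and *Gas6* and *Tyro3* the lowest, at 1.17 and 0.81.

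Both remaining genes were at or close to 0. *Gulp1* had 0 counts in all 8 libraries, which allows up to 0.157 to 0.219 CPM (counts scaled to the library total) per library, the level of 3 counts. *Megf10*, on chromosome 18, had 0 counts in 7 libraries and 2 in CD1d-KO replicate 1, a Poisson interval of 0.242 to 7.22 counts that covers counting error only. Neither entered the test, so 8 of the 10 genes were tested.

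Between genotypes, 0 of the 8 tested genes passed the study's thresholds, an adjusted p under 0.01 with more than a 1.5-fold change. They were applied here to edgeR's quasi-likelihood test with the pair as a block. In that test 5 of 13040 genes passed (0.0383%), all 5 higher in CD1d-KO. The study applied its thresholds to DESeq2 and reported genes called in both directions, more of them lower than higher in CD1d-KO. DESeq2 here called 106 of 10398 genes (1.02%). With edgeR at an adjusted p under 0.05 and no fold limit, 0 of 8 passed as well, against 0.406% of all genes (0.284% higher and 0.123% lower in CD1d-KO). At an unadjusted p under 0.05 there was 1 of 8, *Itgb5*, against 12.4% of all genes (7.35% higher and 5.01% lower in CD1d-KO), a share near the background. The member at this level changed with the method: it was *Axl* with limma on log2(TPM + 1), *Axl* and *Itgb5* without replicate 2, and 0 of 8 without the block. DESeq2 and limma on log2(TPM + 1) also called 0 of the members. The median log2 fold change (CD1d-KO against WT) was -0.078 over the 8 genes and 0.0047 over all genes, with 2 positive and 6 negative values. In no member did the 2 groups separate, where 1.95% of all genes did so, and in none did all 4 pairs differ in the same direction, where 20.7% of all genes did (10.6% higher and 10.1% lower).

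**Figure D2:**
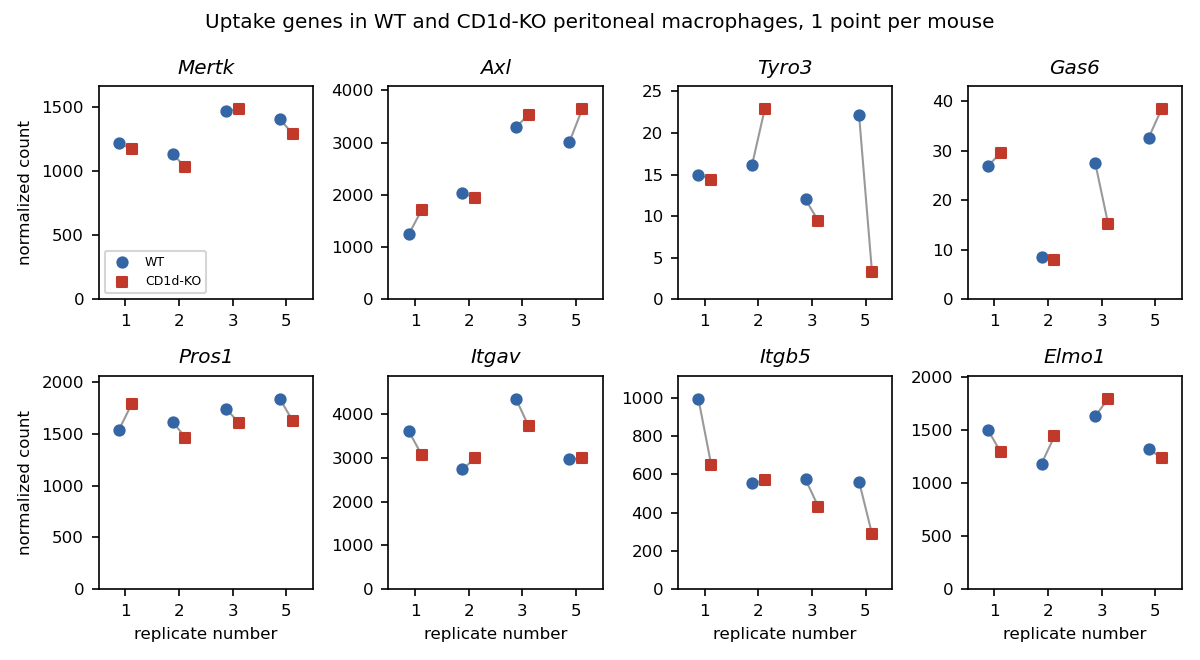
Normalized counts of the 8 tested genes by replicate number, with a line joining the WT and the CD1d-KO mouse of each pair; every vertical axis starts at 0. *Axl* lies lowest in pair 1 and highest in pairs 3 and 5 in both genotypes, and the *Itgb5* values run from 995 in WT replicate 1 to 289 in CD1d-KO replicate 5.

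*Mertk* encodes the receptor that resident macrophages use for engulfment under steady-state conditions. Its normalized counts were 1215, 1134, 1469 and 1407 in WT replicates 1, 2, 3 and 5 and 1173, 1028, 1485 and 1289 in the CD1d-KO replicates. The groups overlapped over nearly their whole ranges, with the lowest value of each genotype in replicate 2 and the highest in replicate 3. The means were 1306 ± 158 and 1244 ± 193 (SD, n = 4), and the log2 fold change of -0.075 ± 0.063 (SE) had a 95% interval of -0.22 to 0.07 and an adjusted p of 0.69 (edgeR). Within each genotype the highest library exceeded the lowest by 1.3 times in WT and 1.45 times in CD1d-KO.

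*Axl*, the TAM receptor known for its induction by inflammatory and interferon signals, spread 2.94 times from its lowest to its highest library, as against 1.45 times for *Mertk*. The WT libraries held 1241, 2043, 3298 and 3012 normalized counts and the CD1d-KO libraries 1706, 1930, 3531 and 3645. Replicates 1 and 2 were low and replicates 3 and 5 high in both genotypes, so the groups overlapped. CD1d-KO exceeded WT in 3 of 4 pairs, the exception being pair 2. Means were 2398 ± 940 and 2703 ± 1027 (SD, n = 4), with a log2 fold change of 0.19 ± 0.10 (SE), an interval of -0.03 to 0.41 and an adjusted p of 0.476 by edgeR. Without replicate 1 the log2 fold change was 0.10, with an adjusted p of 0.815.

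*Tyro3*, the TAM receptor most prominent in the nervous system, was present at few counts. WT libraries held 15, 16.1, 12 and 22.1 normalized counts and CD1d-KO libraries 14.4, 22.9, 9.40 and 3.30. The highest and the lowest libraries were both CD1d-KO. At this depth the log2 fold change of -0.47 had an SE of 0.51 and an interval of -1.64 to 0.71 (adjusted p = 0.772, edgeR), and it became 0.063 without replicate 5 and 0.14 on the TPM scale. A difference in *Tyro3* was not detectable at this depth.

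The balance of the 3 receptors differed from mouse to mouse. *Axl* made up 53.7, 67.9, 74.1 and 72.9% of the summed TAM receptor TPM in WT replicates 1, 2, 3 and 5 and 64.1, 71.0, 75.7 and 80.0% in CD1d-KO. *Mertk* made up 45.6, 31.2, 25.7 and 26.0% and 34.0, 27.5, 23.7 and 20%, and *Tyro3* between 0.0539 and 1.89%. The *Axl* share was above the paired WT share in each of the 4 pairs, while the ranges of the genotypes overlapped. The ratio of *Axl* to *Mertk* TPM ran from 1.18 in WT replicate 1 to 4 in CD1d-KO replicate 5. The shares were computed after the values had been seen and were given no test.

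**Figure D3:**
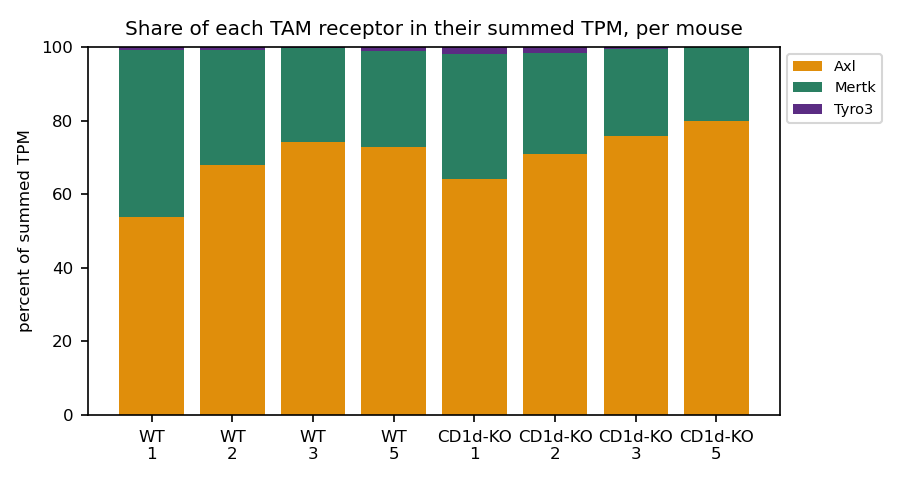
Stacked bars of the percentage of summed *Axl*, *Mertk* and *Tyro3* TPM in each of the 8 libraries. The *Axl* part ranges from 53.7% in WT replicate 1 to 80.0% in CD1d-KO replicate 5, and *Tyro3* stays at or under 1.89%.

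RSEM also assigned shorter mean lengths to the *Axl* transcripts in CD1d-KO. The mean, weighted by their estimated abundance, was 3554, 3514, 3210 and 3233 bases in WT and 3339, 3007, 3084 and 3008 bases in CD1d-KO. It was shorter in CD1d-KO in each of the 4 pairs, at 3378 ± 181 against 3109 ± 157 bases (SD, n = 4). An exact paired permutation test gave a two-sided p of 0.125, the smallest that 4 pairs allow. Any gene whose 4 pairs differ in the same direction gets this p, so the test adds nothing to the count of pairs. Among the 9229 tested genes whose length varied, 6.63% were shorter and 5.0% longer in CD1d-KO in all 4 pairs. A shorter length raises TPM for the same count. *Axl* TPM was 41.4, 55.5, 101 and 95.3 in WT and 59.3, 62.4, 105 and 134 in CD1d-KO, higher in each of the 4 pairs, and limma on log2(TPM + 1) gave a log2 difference of 0.31 with an adjusted p of 0.377. The annotation lists 8 *Axl* transcripts, of 382 to 4265 bases, and how the reads fell among them was not analysed here.

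The ligands stood at opposite ends of the levels. *Pros1*, protein S, had 1543, 1618, 1743 and 1842 normalized counts in WT and 1794, 1466, 1607 and 1628 in CD1d-KO. It was the most even of the 8 genes: its highest library exceeded its lowest by 1.26 times. The log2 fold change was -0.054 ± 0.083 (SE) with an interval of -0.25 to 0.14 (adjusted p = 0.852, edgeR). Without replicate 1 it was -0.15, with an adjusted p of 0.646.

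*Gas6*, the ligand that activates all 3 TAM receptors, held 27.0, 8.60, 27.6 and 32.7 normalized counts in WT and 29.6, 8.01, 15.3 and 38.5 in CD1d-KO. Replicate 2 was lowest and replicate 5 highest in both genotypes, and the groups overlapped. The fold change on the log2 scale was -0.11 ± 0.30 (SE), with an interval of -0.81 to 0.59 and an adjusted p of 0.929 in edgeR, and it was 0.12 without replicate 3. On the TPM scale *Pros1* exceeded *Gas6* by 40.0 to 177 times across the libraries. The sum of 8 B cell markers had its lowest and highest libraries in the same replicates, with 7098, 2917, 6300 and 7938 normalized counts in WT and 8691, 1897, 5399 and 13087 in CD1d-KO. The study describes the sequenced pMacs as purified and does not state how for this assay. The part of B cell RNA in the *Gas6* values was not tested.

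*Itgav* encodes the αv integrin chain, shared by the integrins that bind bridging proteins through their RGD motif. It had 3611, 2736, 4352 and 2971 normalized counts in WT and 3073, 2990, 3720 and 2991 in CD1d-KO. The CD1d-KO values all lay inside the WT range. The log2 fold change was -0.081 ± 0.084 (SE; interval -0.28 to 0.12, adjusted p = 0.763 in edgeR). Genes that overlap *Itgav* on the opposite strand had at most 25.1 expected counts in a library, and without a stated strand setting their reads cannot be told apart from its own.

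*Itgb5* encodes the β5 chain that pairs with αv, and it had the lowest unadjusted p of the 8 genes. WT libraries held 995, 554, 573 and 561 normalized counts and CD1d-KO libraries 650, 569, 430 and 289. WT replicate 1 was high and CD1d-KO replicate 5 low, the other values lay between 430 and 650, and the groups overlapped. CD1d-KO was lower in pairs 1, 3 and 5, with log2 ratios of -0.61, -0.41 and -0.96, and not in pair 2, with 0.04. Means were 671 ± 216 and 485 ± 159 (SD, n = 4), and edgeR gave a log2 fold change of -0.48 ± 0.14 (SE), an interval of -0.82 to -0.15, an unadjusted p of 0.0108 and an adjusted p of 0.23. Without replicate 1, which holds the high WT value, they were -0.44 with an adjusted p of 0.523. DESeq2 gave an adjusted p of 0.11. With no filter on low counts edgeR gave 0.011, so whether *Itgb5* passed 0.05 depended on that filter.

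The partner β chains that can join αv were at other levels. *Itgb1* was the most abundant at 445 to 705 TPM in WT and 640 to 822 in CD1d-KO, *Itgb8* had 4.26 to 11.3 and *Itgb3* 0.13 to 0.48 TPM. *Itgb5* made up 2.74 to 8.33% of the summed β chain TPM in WT and 1.23 to 4.05% in CD1d-KO. *Itgb1*, which also joins many other α chains, had a log2 fold change of 0.38 ± 0.10 (SE) with an adjusted p of 0.179 (edgeR).

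*Elmo1*, the adaptor that couples engulfment receptors to RAC1, had 1501, 1186, 1633 and 1326 normalized counts in WT and 1292, 1446, 1799 and 1237 in CD1d-KO. CD1d-KO was higher in pairs 2 and 3 and lower in pairs 1 and 5. The log2 fold change was 0.026 ± 0.093 (SE; interval -0.19 to 0.24, adjusted p = 0.942, edgeR), and it changed sign without replicate 2, at -0.056, or without replicate 3, at -0.011. Without replicate 1 it was 0.11, with an adjusted p of 0.791.

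**Figure D4:**
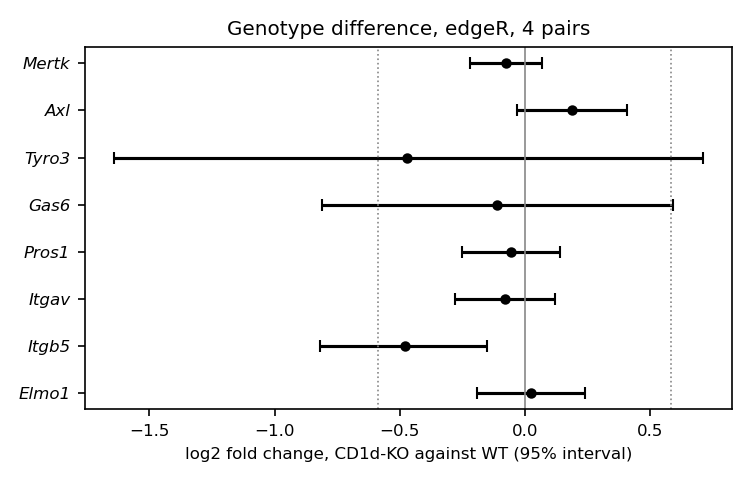
Log2 fold change of CD1d-KO against WT for the 8 tested genes, as points with 95% intervals from edgeR. The interval of *Itgb5*, -0.82 to -0.15, is the only one of the 8 that leaves out 0, and those of *Tyro3* and *Gas6* are the widest.

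The intervals bound what the 8 mice could miss. For *Mertk*, *Pros1*, *Itgav* and *Elmo1* they ended between -0.28 and 0.24 on the log2 scale. A change of the size of the study's fold threshold lies outside these 4 intervals and that of *Axl*, -0.03 to 0.41, and inside those of *Tyro3*, *Gas6* and *Itgb5*. These intervals hold for the groups as labelled. They include the library labelled CD1d-KO replicate 1, which held *Cd1d1* near the lowest WT library, and no intervals were computed without it.

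Differences between pairs were larger than those between genotypes for several genes. A test of the replicate number in the same fit, added after the values had been seen, gave an adjusted p under 0.05 for 3 of the 8 genes, *Mertk*, *Axl* and *Itgb5*, against 15.6% of all genes. In simulated data the replicate test recovered 96 of 100 changed genes, with 15 false calls. Its recovery at the sizes seen for *Mertk*, *Axl* and *Itgb5* was not tested. For *Axl* the mean of the pairs spanned 1.23 on the log2 scale, from pair 1 to pair 3, and 88.4% of tested genes spanned less (adjusted p = 0.00466, edgeR). The span of *Itgb5* was 0.99, with 82.4% of genes spanning less and an adjusted p of 0.0491. *Mertk* spanned 0.45, beside a median of 0.47 over all genes, with an adjusted p of 0.0403. *Gas6* spanned 1.86, more than 95.7% of genes, at few counts and an adjusted p of 0.0648. *Pros1* spanned 0.17, and 9.10% of genes spanned less. What the replicate number stands for is not given in the labels.

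The summed markers of small pMacs and dendritic cells, the monocyte-derived cells of the cavity, were 5003, 6783, 9724 and 10019 normalized counts in WT and 7336, 4262, 10181 and 11641 in CD1d-KO. As with *Axl*, replicates 3 and 5 were above replicates 1 and 2 in both genotypes. The lowest CD1d-KO sum was in replicate 2, and the lowest CD1d-KO value of *Axl* in replicate 1. The part of these cells in the *Axl* values was not tested.

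The wider uptake pathway was described with 8 lists holding 74 further genes, of which 66 were tested. By edgeR 0 of the 66 were called and 0 had an adjusted p under 0.05, while 12 had an unadjusted p under 0.05, 7 higher and 5 lower in CD1d-KO, or 18.2% against 12.4% of all genes. These counts depended on the tool and the filter. DESeq2 called 1 of them, *Anxa5*, where it called 1.02% of all genes it adjusted, and limma called 0. At an adjusted p under 0.05 DESeq2 passed 9 of 64, against 2.96% of all genes: *Abca1*, *Bcar1*, *Itgb1*, *Socs3* and *Timd4* were higher and *Anxa5*, *Cd300lb*, *Cd36* and *P2ry6* lower in CD1d-KO. Its adjusted p was 0.000375 for *Anxa5*, 0.00232 for *Cd300lb* and 0.00415 for *Abca1*, and lay between 0.0111 and 0.0434 for the other six. With no filter on low counts edgeR passed 8 of these 9, without *Socs3*, against 2.44% of all genes. The values below are those of edgeR with its filter. Their median log2 fold change was 0.016. Values of both signs occurred in 7 of the 8 lists, the exception being the uptake-restraining signals, where all 4 were positive. Of the 14 phagosome maturation and corpse digestion genes 0 reached an unadjusted p of 0.05, and in the engulfment signalling list 2 of 13 did, both higher in CD1d-KO.

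**Figure D5:**
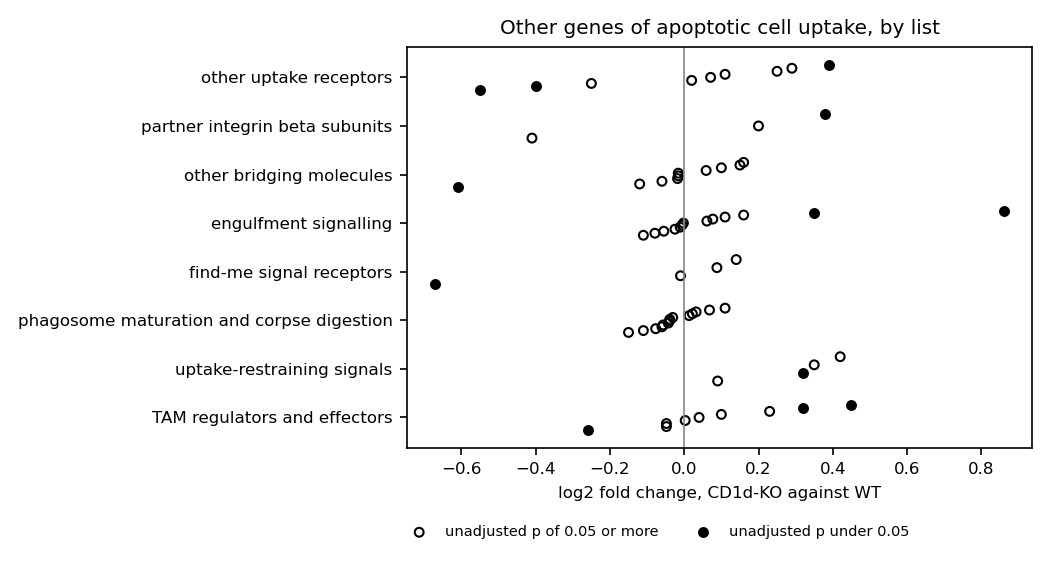
Log2 fold changes of the 66 tested genes of the wider uptake pathway, 1 row per list and 1 point per gene, filled where the unadjusted p is under 0.05. The 12 filled points lie on both sides of 0, and most phagosome genes lie close to it.

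Among the receptors outside the TAM family, *Cd300lb*, a phosphatidylserine-binding receptor, had 3861, 2480, 1828 and 2470 normalized counts in WT and 2544, 1988, 935 and 1986 in CD1d-KO. It was lower in CD1d-KO in each of the 4 pairs, with overlapping groups, a log2 fold change of -0.55 ± 0.11 (SE) and an adjusted p of 0.122 (edgeR), which was 0.319 without replicate 1. *Cd36*, the scavenger receptor for oxidized lipids that also takes part in uptake of dying cells, had 26086, 18091, 19079 and 17885 counts in WT and 17126, 17066, 11828 and 15451 in CD1d-KO. Its groups did not overlap, as for 0.905% of all genes in this direction, and the log2 fold change of -0.40 ± 0.12 (SE) had an adjusted p of 0.226 (edgeR). Without replicate 1 the log2 fold change of *Cd36* was -0.33, with an adjusted p of 0.529. The study itself reported comparable *Cd36* mRNA in WT and CD1d-KO pMacs by qPCR. *Timd4*, the phosphatidylserine tether of resident macrophages, had 2595, 3257, 2935 and 4385 counts in WT and 3761, 3578, 4722 and 4982 in CD1d-KO, with a log2 fold change of 0.39 ± 0.11 (SE; adjusted p = 0.20, edgeR). The 6 large pMac markers, which include *Timd4* itself, summed to 18258 to 20799 in WT and 21791 to 27415 in CD1d-KO. Not every marker of that list rose. *Gata6* had a log2 fold change of -0.087 (adjusted p = 0.879, edgeR) and *Icam2* 0.36 (adjusted p = 0.422, edgeR). The part of a shift in large pMacs in the *Timd4* values was not tested.

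Of the bridging molecules, *Anxa5*, which binds phosphatidylserine directly, had 2207, 2878, 3120 and 2289 normalized counts in WT and 1319, 2149, 1598 and 1847 in CD1d-KO. The groups did not overlap, and the log2 fold change was -0.61 ± 0.11 (SE; adjusted p = 0.086, edgeR). *Anxa5* lies on the same chromosome as *Cd1d1*, at chr3:36448923-36475894 and 50.5 Mb away. Without replicate 1 its log2 fold change was -0.56 and its adjusted p 0.266. *Thbs1*, thrombospondin-1, which links dying cells to αv integrins and CD36, took 3.49 to 5.88% of all counts in each library, with a log2 fold change of 0.16 ± 0.10 (SE; adjusted p = 0.606, edgeR). *C1qb*, a chain of the complement opsonin C1q, had 10011 to 12344 counts in WT and 8916 to 12184 in CD1d-KO.

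In engulfment signalling the scaffold *Bcar1*, p130Cas, had the lowest adjusted p of the 66 genes. It had 57.7, 88.1, 85.3 and 55.9 normalized counts in WT and 102, 148, 189 and 92.3 in CD1d-KO. Every CD1d-KO library was above every WT library, as for 1.04% of all genes in this direction, with a log2 fold change of 0.86 ± 0.14 (SE) and an adjusted p of 0.0571. Without replicate 1 these were 0.88 and 0.165. *Abca1*, the cholesterol exporter that macrophages use after taking up dying cells, had 19772, 18128, 22840 and 16117 counts in WT and 22552, 22139, 32665 and 21367 in CD1d-KO, higher in each of the 4 pairs (log2 fold change 0.35, SE 0.085, adjusted p = 0.158, edgeR). *Nr1h3*, the sterol sensor LXRα, which induces *Mertk* and *Abca1*, had a log2 fold change of 0.45 ± 0.11 (SE) with an adjusted p of 0.169 (edgeR), beside the -0.075 of *Mertk*. In the study's qPCR, *Nr1h3* mRNA was comparable between WT and CD1d-KO cells. A link between *Nr1h3* and these genes was not tested.

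Several genes that tune TAM receptors or restrain uptake were also without a call. *Socs3*, an inhibitor of cytokine signalling that TAM receptors induce, had a log2 fold change of 0.32 ± 0.075 (SE; adjusted p = 0.148), and *Adam10*, a protease that sheds TAM receptors, had -0.26 ± 0.073 (adjusted p = 0.203, edgeR). *Cd47*, the signal that restrains uptake of living cells, had 0.32 ± 0.10 (adjusted p = 0.235). *P2ry6*, a receptor for nucleotides released by dying cells, had 528, 228, 339 and 240 normalized counts in WT and 239, 206, 189 and 173 in CD1d-KO. It was lower in CD1d-KO in each of the 4 pairs, with overlapping groups and a log2 fold change of -0.67 ± 0.16 (SE; adjusted p = 0.149, edgeR). Without replicate 1 it was -0.49, with an adjusted p of 0.41.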

How the data were processed

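PolyA RNA from pMacs of 4 WT and 4 CD1d-KO mice was sequenced single-end. The authors trimmed reads with Cutadapt, aligned them with STAR 2.5.2a to GRCm38 and deposited, from RSEM 1.3.0, expected counts, TPM and effective and mean transcript lengths per Ensembl gene. The strand setting is not given in the sources used here. Symbols came from the GENCODE annotation of GRCm38. Expected counts were rounded and tested with edgeR 4.0.16 (R 4.3.3; filterByExpr, TMM, quasi-likelihood test, genotype with replicate number as a block, as the study's model has it), with Benjamini-Hochberg adjustment over 13040 genes. Genes were called where the adjusted p was below 0.01 and the change exceeded 1.5-fold. The deposited TPM values were tested with limma 3.58.1 as log2(TPM + 1), which understates changes of low genes. DESeq2, the tool of the study, was an alternative in version 1.42.0. The counts were whole within 0.005 in all libraries for all detected members except *Itgav* and *Itgb5*, whose reads RSEM shared with other genes.

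Each library is a separate mouse. The numbers were used to pair the samples. Same-numbered libraries deviated together from their group means, with correlations of 0.487, 0.387, 0.505 and 0.207 for numbers 1, 2, 3 and 5. The highest correlation with a library of another number was -0.0148, 0.0254, 0.0586 and 0.22, so number 5 did not correlate best with its own. No 2 libraries were copies (smallest chi-square per degree of freedom 13.4). In data simulated for this genotype comparison on 12848 genes, edgeR recovered 65 of 100 genes changed by 1 on the log2 scale and 91 of 100 changed by 2, with 6 false calls. Members, lists, tests and promoter motifs were chosen with earlier results of these data known. All 10 members, *Cd1d1* and, in each pathway list, up to 3 genes of lowest p were eligible to be named. The Poisson interval of *Megf10* and the limits of *Gulp1* cover counting error only. The edgeR intervals also take in the estimated variation between libraries.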

Additional observations from a re-analysis of the deposited data

Results flagged for a closer look

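In 80 groups of 4 libraries examined, 6 had a library far from the other 3 by Dixon's test, and chance gives about 1 in 20. *Itgav* was 3720 normalized counts in CD1d-KO replicate 3, with the others at 2990 to 3073. *Itgb5* was 995 in WT replicate 1, against 554 to 573. *Megf10* was 1.52 in CD1d-KO replicate 1 and 0 in the other three. *Abca1* was 32665 in CD1d-KO replicate 3, against 21367 to 22552, and *Cd36* was 26086 in WT replicate 1, against 17885 to 19079. *Cd1d1* was 60.6 in the library labelled CD1d-KO replicate 1, with the others at 0 to 1.14. No cause was tested for any of them.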

How the results depend on the processing

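The members called stayed at 0 under all 13 alternatives. All genes called, 5 in the main test, numbered 3 with no replicate block, 106 with DESeq2, 3 with limma on TPM, 236 with no filter on low counts, and 3 to 22 when each replicate number was left out in turn. With no filter, 1 member passed an adjusted p of 0.05 (*Itgb5*, 0.011), and over all alternatives its adjusted p ran from 0.011 to 0.997 and its log2 fold change from -0.65 to -0.34. Pathway genes called were 1 with DESeq2 (*Anxa5*) and 3 with no filter (*Anxa5*, *Bcar1* and *P2ry6*). The log2 fold change of *Tyro3* reversed to 0.14 with limma on TPM and ran from -0.86 to 0.063 over the fits without a replicate number, that of *Gas6* from -0.26 to 0.12 and that of *Elmo1* from -0.056 to 0.11. The cause was not tested. *Mertk*, *Axl*, *Pros1*, *Itgav* and *Itgb5* kept their sign throughout. Leaving out the block changed no member's call. A minimum of 10 counts in every library left out *Tyro3* and *Gas6*, for which DESeq2 gave no adjusted p. Both genes had few counts, which widens their intervals. The smallest p of an exact test on 4 pairs is 0.125.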
